A study of Mus musculus with 28 samples.

Results

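Jun, Junb, Jund, Fos, Fosb, Fosl1, Fosl2, Egr1, Ier2 and Atf3 are immediate early genes of the AP-1 and Egr families or are induced together with them. These 10 genes were picked by name, and their read counts were summed per gene in all 28 mouse RNA-seq libraries of the series. They are 10 of 23712 genes with summed counts, and all 10 were among the 16499 genes that passed the filter on low counts and were tested. The libraries fall into 9 groups of C57BL/6 cells. MEF (2 libraries) are fibroblasts from embryos at 13.5 days post coitum, and Hep (2 libraries) are hepatocytes that collagenase released from the livers of mice 10 weeks old. All other cells started as such fibroblasts and received retroviruses (pGCDNsam backbone) carrying Hnf4alpha and 1 Foxa factor, so that Hnf4alpha is shared by all of them. The groups 48hr_4a1, 48hr_4a2 and 48hr_4a3 (2 libraries each) carry Foxa1, Foxa2 or Foxa3 and were taken at 48 h. The groups iHep_4a1 (6 libraries), iHep_4a2 (4) and iHep_4a3 (6) carry the same factors and were taken as established hepatocyte-like cells, without a stated time. The group 48hr_4a3_del2 (2 libraries) carries a Foxa3 mutant called del2 and Hnf4alpha. Its titles give 48 h while its stage label says iHep. Below, these groups are called 48 h Foxa1, iHep Foxa1 and so on, and Foxa3del2. The labels do not say whether replicates are separate cultures, whether iHep libraries are clones, or what fraction of the cells carries the viruses, so the p-values measure only the spread between these libraries.

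The AP-1 transcription factor is a dimer of a Jun family protein (Jun, Junb, Jund) with a Fos family protein (Fos, Fosb, Fosl1, Fosl2) or with a relative such as Atf3, and it binds the DNA element TGANTCA. In resting cells most of these genes are low; serum, growth factors, stress or handling switch on Fos, Fosb, Egr1, Ier2 and Junb within minutes through ERK and p38 kinases, SRF with its ternary complex partners, and CREB, and the transcripts decay fast. Jund, and to a lesser degree Fosl2, are less inducible and are seen in unstimulated cells. In liver, Jun is known for hepatocyte survival and proliferation after partial hepatectomy, when Fos, Jun, Egr1 and Atf3 are all induced, and tissue dissociation with collagenase is a known inducer of the set. AP-1 is also known as a factor that holds open fibroblast enhancers and that many reprogramming protocols have to displace.

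Between 14592820 and 51743266 reads per library were assigned to transcripts. Levels are given as CPM, the reads of a gene scaled to a common library total, on library sizes scaled by edgeR's TMM method. The libraries separate by a measure the labels do not describe. The small nuclear RNA Rn7sk lay between 17.2 and 72.5 CPM in 14 libraries (all 6 libraries at 48 h, iHep Foxa1 replicates 4 to 6 and iHep Foxa3 replicates 2 to 6) and between 0 and 5.98 CPM in the other 14. They are called high-Rn7sk and low-Rn7sk libraries here. The ribosomal protein transcript Rps29 was at 249 CPM or more in the first kind and at 60.5 CPM or less in the second, except in Foxa3del2 (372 and 373 CPM), which is low in Rn7sk. Every comparison of 48 h cells with MEF, of iHep Foxa2 with 48 h Foxa2 and of Foxa3del2 with 48 h Foxa3 sets one kind of library against the other, so that library kind and cell group cannot be told apart there. Fibroblast markers (6 of 6 tested) summed to at least 15430 CPM in MEF and in the 48 h Foxa1, Foxa2 and Foxa3 libraries, to 6330 and 7662 CPM in Foxa3del2, and to at most 393 CPM in iHep. Hepatocyte markers (6 of 6) summed to 166300 and 186000 CPM in Hep, to 1994 to 30820 CPM in iHep and to at most 12.5 CPM in MEF and in the 48 h Foxa1, Foxa2 and Foxa3 libraries. In bulk RNA, more cells that express a gene and more RNA per cell cannot be told apart.

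Promoter sequences are shown for Fos, Junb and Atf3, whose levels moved together within high-Rn7sk libraries, and for Jun, whose level did not move with them there. Within low-Rn7sk libraries this contrast was absent. Pearson's r of log2(CPM + 0.5) with Junb was there 0.903 for Fos, 0.815 for Jun and 0.471 for Atf3. The sequences run from 250 bases before to 50 after the annotated gene start and come from RefSeq on GRCm38.p6, which is a later build than the mm9 of the count tables. RefSeq entries were matched for 7 of the 10 members. Capitals mark TGACG (on either strand), the core of the element that CREB and ATF proteins bind, and TATAAA. Fos lies at chr12:85473640-85473939 on the plus strand, Junb at chr8:84978699-84978998 on the minus strand, Atf3 at chr1:191183284-191183583 on the minus strand and Jun at chr4:95052173-95052472 on the minus strand.
Fos: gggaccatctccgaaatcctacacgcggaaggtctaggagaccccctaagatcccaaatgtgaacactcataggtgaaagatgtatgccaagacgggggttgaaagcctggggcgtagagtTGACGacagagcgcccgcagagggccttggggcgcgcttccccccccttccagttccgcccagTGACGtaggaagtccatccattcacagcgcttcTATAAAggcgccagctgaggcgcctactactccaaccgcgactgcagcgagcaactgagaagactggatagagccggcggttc
Junb: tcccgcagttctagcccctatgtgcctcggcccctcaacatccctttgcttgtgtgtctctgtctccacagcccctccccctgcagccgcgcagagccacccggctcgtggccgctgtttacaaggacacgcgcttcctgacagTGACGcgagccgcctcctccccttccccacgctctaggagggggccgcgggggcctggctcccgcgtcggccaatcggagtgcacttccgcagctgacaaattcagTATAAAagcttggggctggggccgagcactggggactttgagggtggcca
Atf3: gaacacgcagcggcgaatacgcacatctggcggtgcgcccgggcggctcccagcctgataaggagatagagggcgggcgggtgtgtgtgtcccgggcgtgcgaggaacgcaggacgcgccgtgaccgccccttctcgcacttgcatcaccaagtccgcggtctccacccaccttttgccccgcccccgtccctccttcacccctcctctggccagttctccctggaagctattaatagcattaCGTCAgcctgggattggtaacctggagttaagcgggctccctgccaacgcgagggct
Jun: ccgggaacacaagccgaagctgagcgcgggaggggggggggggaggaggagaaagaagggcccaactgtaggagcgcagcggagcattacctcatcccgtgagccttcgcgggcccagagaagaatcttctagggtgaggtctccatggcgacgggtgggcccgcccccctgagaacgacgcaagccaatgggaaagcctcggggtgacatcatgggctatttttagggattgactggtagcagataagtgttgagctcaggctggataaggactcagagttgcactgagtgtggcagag
TGACG was present in 4 of these 7 promoters (Fos with 2 matches, Junb, Fosb and Atf3) against 20.8% of all 32851 promoter windows, searched on both strands. TATAAA was present in Fos, 33 bases before the start, and in Junb, at the start itself, against 13.6% of all windows. GCGGGGGCG, a site that Egr proteins bind, was present in Fosl2 and Fosb against 2.91%, and GGGCGG, the Sp1 core, in 5 of the 7 against 35.7%; in Fosl2 and Fosb these matches overlap each other. The full element TGACGTCA (1.79% of windows), the AP-1 element TGANTCA (7.81%) and the CArG box that SRF binds (1.63%) matched none of the 7 windows. Bases farther than 250 before the start were not searched, so these genes may carry such elements outside the windows. These are matches of letters in a window of fixed length and say nothing of binding. Only exact letters were searched. The Jun sequence holds tgacatca, which resembles TGACGTCA and is left unmarked, so the lack of capitals in Jun does not show that it lacks such an element.

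The 48 h libraries were low in most members and close to each other. Across the 6 libraries with Foxa1, Foxa2 or Foxa3 at 48 h, the highest value was between 1.11 (Fosl2) and 1.70 (Fosb) times the lowest. Fos, the best known member and the partner of Jun in classical AP-1, lay between 4.40 and 6.99 CPM. Fosb lay between 1.23 and 2.08, Fosl1 between 3.08 and 4.00, and Atf3, a stress-induced repressor or activator, between 4.87 and 7.02 CPM. Ier2, a nuclear protein that responds to growth factors, lay between 15.7 and 17.96, and Junb between 28.9 and 46.1 CPM. Jun (60.6 to 70.1), Egr1 (66.5 to 82.1), Jund (98.2 to 116) and Fosl2 (150 to 166 CPM) were the highest. Over the 16 iHep libraries the highest value was 8.09 (Fosl2) to 322 (Fosb) times the lowest. Junb ran there from 135 over a median of 967 to 3385 CPM, Fos from 30.2 over 230 to 779, Egr1 from 203 over 696 to 1765, and Jun from 12.4 over 158 to 602 CPM. In order of group means, iHep Foxa2 was first for Junb, Fos, Fosb, Fosl1, Egr1 and Atf3, Hep was first for Jun, Jund and Ier2, and Foxa3del2 was first for Fosl2. In each of these orders the first group overlapped the second in its range of libraries, except for Fosl2. The 3 groups at 48 h took the last 3 places for Jun, Junb, Egr1, Ier2, Atf3 and Fosb. All these orders rest on CPM with TMM scaling. FPKM corrects for transcript length and carries no TMM scaling. By mean FPKM, iHep Foxa2 was above Hep for Jun (127 against 110.5), Jund (301.5 against 208) and Ier2 (278.8 against 190.6).

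**Figure D1:**
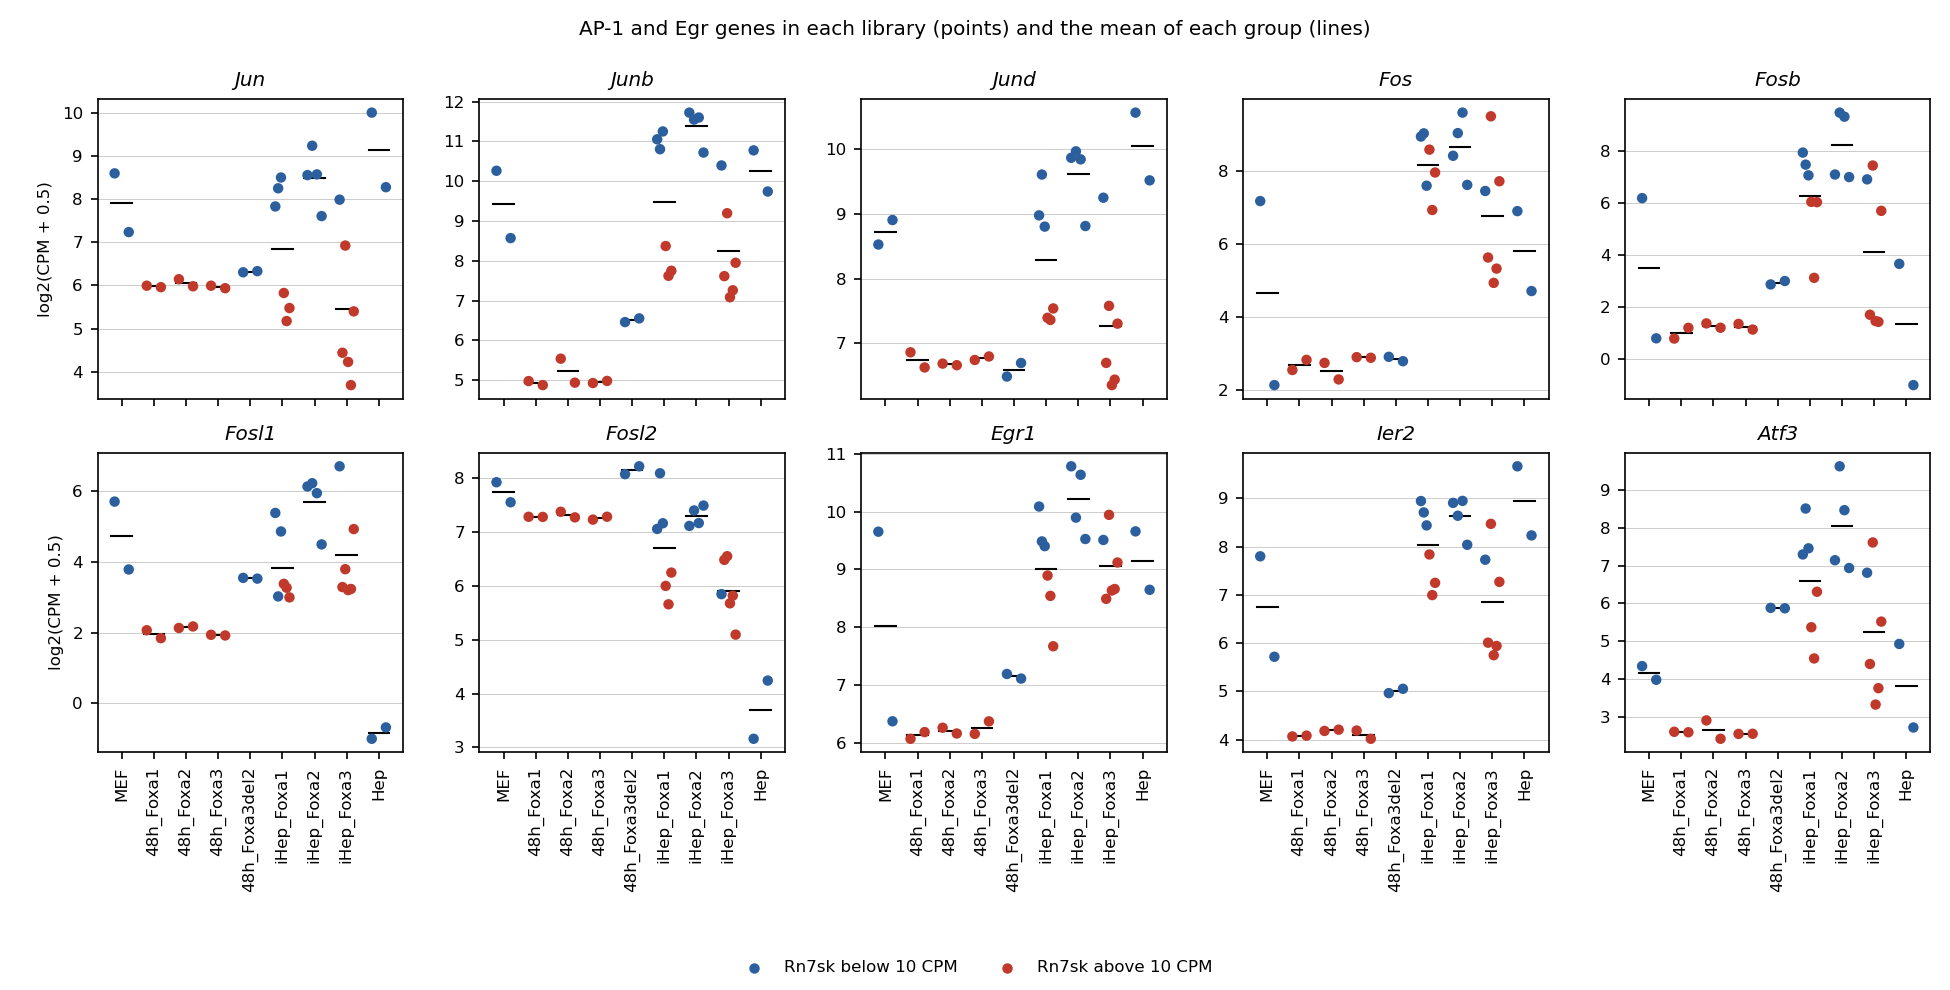
Each panel plots 1 gene: the vertical axis is log2(CPM + 0.5), the horizontal axis the 9 groups, points are libraries (red, Rn7sk above 10 CPM; blue, below) and black lines are group means on that scale. The 48 h points lie close together near the bottom of most panels, and within iHep Foxa1 the blue points of Jun, Junb and Jund lie above the red ones.

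The change from 48 h to iHep was compared first within high-Rn7sk libraries, which exist at both stages for Foxa1 and Foxa3. The cut at 10 CPM does not make the stages alike in library kind. Rn7sk was at 17.2 to 29.6 CPM at 48 h and at 37.2 to 72.5 CPM in these iHep libraries. Rps29 was at 249 to 292 CPM and at 425 to 921 CPM. The part of this difference in the members' changes was not tested. In this comparison 6 members rose with Foxa1 and 6 with Foxa3 (edgeR's quasi-likelihood F test, Benjamini-Hochberg adjusted p under 0.05 over all 16499 genes), while Fosl2 fell with both. Over all genes 25.3% were called higher and 26.6% lower with Foxa1, and 24.4% higher and 24.9% lower with Foxa3. The members' median log2 difference was 2.69 and 2.93, against 0.00 and 0.02 over all genes tested. Several of these calls needed both libraries of a 48 h group. Without either library of 48 h Foxa1, Fos, Fosb, Egr1 and Atf3 were no longer called (adjusted p 0.0519 to 0.196) and 3 calls were left. Without either library of 48 h Foxa3, Fos, Fosl1 and Atf3 were no longer called (0.0751 to 0.111) and 4 were left.

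Junb, the Jun family member that often restrains Jun, was at 331, 197 and 215 CPM in iHep Foxa1 replicates 4 to 6 and at 31.0 and 28.9 CPM at 48 h. The log2 difference was 3.05 ± 0.60 (SE; adjusted p = 0.000332). In iHep Foxa3 replicates 2 to 6 Junb was at 196, 586, 135, 153 and 247 CPM against 30.0 and 31.1 CPM, a log2 difference of 3.11 ± 0.58 (adjusted p = 0.000198). All 8 iHep libraries lay above all 4 libraries at 48 h, and Junb stayed called whichever library was left out. Jun, the family's strongest transactivator, did not pass the test: it was at 56.1, 35.6 and 44.0 CPM in iHep Foxa1 against 63.2 and 61.7 CPM (log2 difference -0.46 ± 0.70, adjusted p = 0.601). In iHep Foxa3 it was at 21.2, 121, 18.2, 12.4 and 41.6 CPM against 63.2 and 60.6 CPM (-0.53 ± 0.63, adjusted p = 0.503). Replicate 3 was the only 1 of these 5 above the 48 h libraries, and without it Jun was called lower, at -1.41 ± 0.47 (adjusted p = 0.0193). Jund, the member expressed in resting cells, was at 164 to 185 CPM in iHep Foxa1 replicates 4 to 6 and at 98.2 and 116 CPM at 48 h (0.69 ± 0.37, adjusted p = 0.129). Its Foxa3 libraries were at 81.1 to 191 CPM against 106 and 110 CPM (0.19 ± 0.34, adjusted p = 0.670).

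In the Fos family, Fos rose and Fosl2 fell. Fos was at 385, 122 and 249 CPM in iHep Foxa1 replicates 4 to 6 and at 5.36 and 6.61 CPM at 48 h, a log2 difference of 5.40 ± 1.52 (adjusted p = 0.00597). In Foxa3 libraries Fos was at 49.2, 727, 30.2, 39.8 and 211 CPM against 6.99 and 6.90 CPM (4.93 ± 1.45, adjusted p = 0.00827), and without replicate 3 the difference was 3.57 ± 1.14 (adjusted p = 0.0150). No library of either stage overlapped the other. Fosb, a close relative whose short splice form is a known inhibitor, was at 65.3, 8.20 and 64.7 CPM with Foxa1 against 1.23 and 1.80 CPM (4.92 ± 2.00, adjusted p = 0.0461). That call was lost without iHep Foxa1 replicate 4 (adjusted p = 0.0732) or 6 (0.0756). With Foxa3, Fosb was at 2.76, 173, 2.25, 2.19 and 51.3 CPM against 2.05 and 1.70 CPM (4.62 ± 1.92, adjusted p = 0.0519), and 3 of the 5 libraries stayed within 1 CPM of the 48 h level. Without replicate 3 the difference was 2.96 ± 1.59 (adjusted p = 0.135), and without replicate 2, 4 or 5 it was called (4.93, adjusted p 0.0348 to 0.0363). Fosl1 (Fra-1), a later and more stable member that Fos itself is known to induce, was at 9.87, 9.11 and 7.45 CPM with Foxa1 against 3.68 and 3.08 CPM (1.38 ± 0.67, adjusted p = 0.0914). With Foxa3 it was at 9.23, 13.3, 8.68, 8.88 and 29.8 CPM against 3.33 and 3.28 CPM and was called (2.08 ± 0.66, adjusted p = 0.0128). Fosl2 (Fra-2) was at 63.6, 50.04 and 75.5 CPM with Foxa1 against 156 and 155 CPM and fell by 1.30 ± 0.36 on the log2 scale (adjusted p = 0.00516). With Foxa3 it was at 89.1, 93.4, 50.7, 56.0 and 33.7 CPM against 150 and 156 CPM and fell by 1.24 ± 0.32 (adjusted p = 0.00298). Fosl2 was the only member below its 48 h level in all 8 iHep libraries of this kind.

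Egr1, a zinc finger activator that SRF and ERK signalling control, was at 475, 372 and 203 CPM in iHep Foxa1 replicates 4 to 6 and at 66.5 and 72.1 CPM at 48 h (2.34 ± 0.67, adjusted p = 0.00705). With Foxa3 it was at 359, 985, 397, 404 and 556 CPM against 70.6 and 82.1 CPM (2.82 ± 0.67, adjusted p = 0.00166). Ier2 was at 228, 127 and 152 CPM with Foxa1 against 16.25 and 16.45 CPM (3.37 ± 0.77, adjusted p = 0.00121). The Foxa3 libraries had Ier2 at 63.9, 354, 53.3, 60.9 and 154 CPM against 17.7 and 15.7 CPM (3.04 ± 0.73, adjusted p = 0.00185), and without replicate 3 the difference was 2.31 ± 0.55 (adjusted p = 0.00196). For both genes every iHep library lay above every 48 h library. Atf3 was at 40.9, 22.9 and 78.8 CPM with Foxa1 against 5.60 and 5.55 CPM (3.09 ± 1.14, adjusted p = 0.0295), a call that was also lost without iHep Foxa1 replicate 6 (adjusted p = 0.0828). With Foxa3 it was at 20.6, 195, 9.55, 13.1 and 45.4 CPM against 5.37 and 5.39 CPM (3.40 ± 1.12, adjusted p = 0.0170), and without replicate 3 the difference was 2.04 ± 0.80 (adjusted p = 0.0436).

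**Figure D2:**
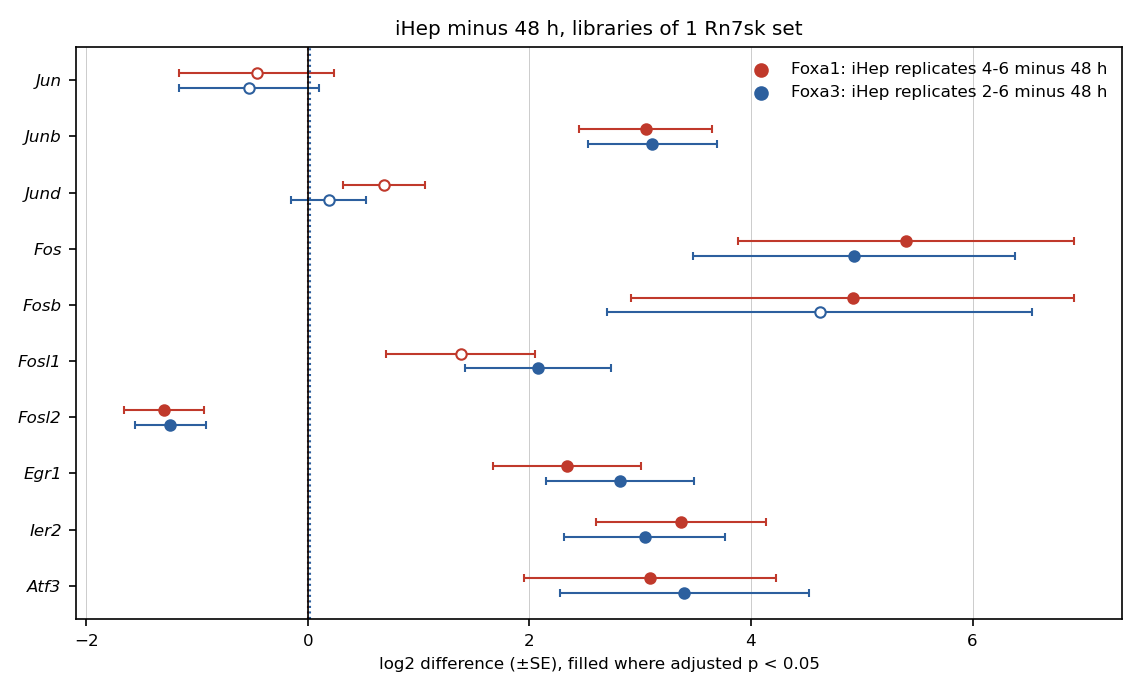
Points are log2 differences of iHep minus 48 h for each member within high-Rn7sk libraries (red, Foxa1; blue, Foxa3), with bars of 1 SE; filled points have an adjusted p under 0.05 and dotted lines are the medians of all genes tested. Fos has the largest difference with both factors (5.40 and 4.93), and Fosl2 is the member called below 0 (-1.30 and -1.24).

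Replicate 3 of iHep Foxa3 stood apart from the other high-Rn7sk libraries of its group. It was singled out with the members' values known, and several members moved together across these libraries. The counts given here beside the shares of all genes therefore describe this library and do not test it. Of the members, 9 of 10 were above all 4 of replicates 2, 4, 5 and 6, against 15.7% of all genes, and 7 were over 2-fold above their mean, against 1.55%. Among 30 other immediate early genes 24 were above all 4 libraries and 13 were over 2-fold above the mean. Of the AP-1 members only Fosl1 was not the highest there (13.3 CPM, against 29.8 CPM in replicate 6). Replicates 2, 4 and 5 were close to each other: Junb lay between 135 and 196 CPM, Fos between 30.2 and 49.2 CPM and Egr1 between 359 and 404 CPM.

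With all libraries of each group, 7 members rose from 48 h to iHep with Foxa1 (background 21.2% of genes higher), 8 with Foxa2 (20.4%) and 7 with Foxa3 (19.6%), where Fosl2 fell (21.0% of genes lower). Foxa2 has only low-Rn7sk libraries as iHep and only high-Rn7sk libraries at 48 h. There Junb was at 3385, 2997, 3109 and 1688 CPM against 46.1 and 30.2 CPM, a log2 difference of 6.2 ± 1.31 (adjusted p = 0.000881). Fos was at 343, 528, 779 and 197 CPM against 6.21 and 4.40 CPM (6.44 ± 1.52, adjusted p = 0.00221), and Egr1 at 1765, 953, 1594 and 737 CPM against 76.0 and 70.9 CPM (4.10 ± 0.79, adjusted p = 0.000357). When a term for the kind of library was added to the fit, the Foxa2 differences were 3.34 ± 0.69 for Junb, 6.07 ± 1.67 for Fos and 3.13 ± 0.80 for Egr1, and 6 members stayed called against 16.3% of genes. Jund (1.07 ± 0.44, adjusted p = 0.0689) and Fosl1 (1.75 ± 0.79, adjusted p = 0.0971) were no longer called. That term assumes the same shift between kinds of library in every group. The calls with all libraries also rested on the 48 h pairs: without 1 library of 48 h Foxa1, 3 or 4 members were called, without 1 of 48 h Foxa2, 5, and without 1 of 48 h Foxa3, 2. The change from 48 h to iHep was compared between the 3 Foxa factors by interaction terms, along with the difference between kinds of library in iHep Foxa1 and iHep Foxa3. None of these 50 values passed the test, and the lowest adjusted p was 0.138 (Fosl2, between kinds of library), so a difference between the factors was not detectable with these libraries. For each factor, the comparison with all libraries and the one within high-Rn7sk libraries share the same 48 h libraries.

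The Fos family was mostly Fosl2 at 48 h and mostly Fos in iHep. By FPKM, which corrects for transcript length, Fosl2 made up 83.0% ± 1.02 (SD, n = 6) of the family at 48 h and Fos 9.02% ± 1.48. In the 16 iHep libraries Fos made up 63.9% ± 12.9, Fosb 13.5% ± 9.86, Fosl1 10.1% ± 7.88 and Fosl2 12.6% ± 9.91. The share of Fos was between 45.0% and 84.4% in iHep and between 6.70% and 10.6% at 48 h, so the stages did not overlap. Among high-Rn7sk iHep libraries alone, Fos held 80.1% ± 3.75 (SD, n = 3) with Foxa1 and 62.8% ± 14.62 (SD, n = 5) with Foxa3. The summed FPKM of the 4 genes was 34.0 to 37.2 at 48 h and 30.8 to 625 in iHep. In Hep the total was 8.49 and 32 FPKM, of which Fos made up 79.3% and 92.4%. FPKM totals carry no TMM scaling, unlike CPM, so they are not ranked between groups. In MEF the 2 libraries differed: Fos held 43.2% and 4.44% of the family and Fosl2 25.9% and 76.2%. In the Jun family Jund led at 48 h (49.4% ± 3.33, n = 6), followed by Jun (26.8% ± 0.975) and Junb (23.8% ± 3.20). Junb led in iHep (73.1% ± 7.09, n = 16), in MEF (49.1% and 72.8%) and in Hep (52.9% and 56.9%). Jun held at most 8.97% of its family in any iHep library and 25.6% to 27.98% at 48 h. The Jun family total ran from 75.8 to 90.4 FPKM at 48 h, from 116 to 2466 FPKM in iHep and from 450 to 940 FPKM in Hep. No test was made of these shares.

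**Figure D3:**
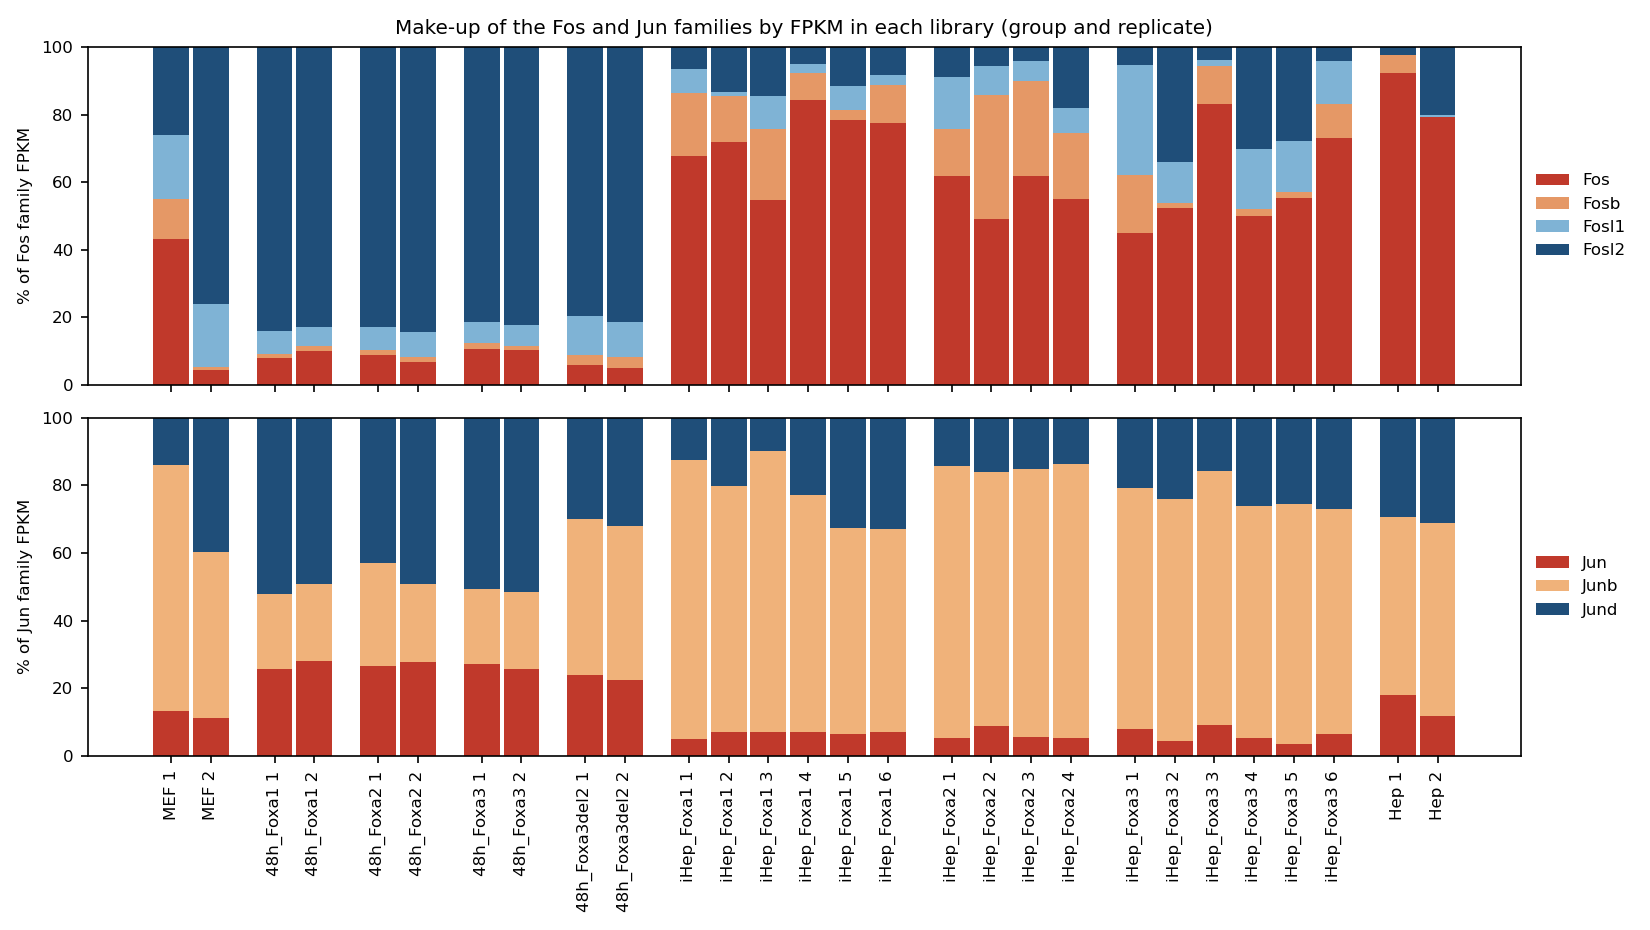
Stacked bars give each gene's percent of the summed FPKM of the Fos family (top) and the Jun family (bottom) in each library, in order of group and replicate. Fosl2 fills 81.5% to 84.2% of the Fos family at 48 h, while Fos fills 45.0% or more in iHep.

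Within iHep Foxa1 the replicates fall into low-Rn7sk (1 to 3) and high-Rn7sk libraries (4 to 6), and both carry the same labels. This split was chosen with earlier results of these data known, and the members were already known to differ along it. Their counts and median beside those of all genes therefore describe the split and do not test it. Of the members, 5 of 10 were higher in replicates 1 to 3 (background 21.4% of genes higher), and none was lower. In 8 of 10 every low-Rn7sk library was above every high-Rn7sk library, which held for 23.4% of all genes. The median log2 difference of the members was 1.64, against 0.11 over all genes. All 3 Jun family genes were called: Junb was at 2126, 1790 and 2438 CPM in replicates 1 to 3 and at 331, 197 and 215 CPM in replicates 4 to 6 (3.10 ± 0.51, adjusted p = 8.35e-05). Jun was at 227, 304 and 361 CPM against 56.1, 35.6 and 44.0 CPM (2.72 ± 0.67, adjusted p = 0.00326), and Jund at 504, 782 and 447 CPM against 168, 164 and 185 CPM (1.75 ± 0.34, adjusted p = 0.000423). None of these 3 genes overlapped between replicates 1 to 3 and 4 to 6. Fosl2 was at 133, 273 and 143 CPM against 63.6, 50.04 and 75.5 CPM (1.54 ± 0.33, adjusted p = 0.00116). Fosl1 was called (1.54 ± 0.58, adjusted p = 0.0421) although its values overlapped, at 41.0, 7.61 and 28.4 CPM against 9.87, 9.11 and 7.45 CPM, and the call was lost without any 1 of replicates 1, 3, 4, 5 and 6 (adjusted p 0.0727 to 0.209). Fos overlapped: it was at 494, 525 and 194 CPM against 385, 122 and 249 CPM (log2 difference 0.68 ± 1.05, adjusted p = 0.648). Egr1 (1.24 ± 0.56, adjusted p = 0.0870), Ier2 (1.31 ± 0.60, 0.0924), Atf3 (2.28 ± 0.93, 0.0595) and Fosb (2.00 ± 1.44, 0.291) did not pass. The Jun, Junb, Jund and Fosl2 calls held without each library in turn.

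**Figure D4:**
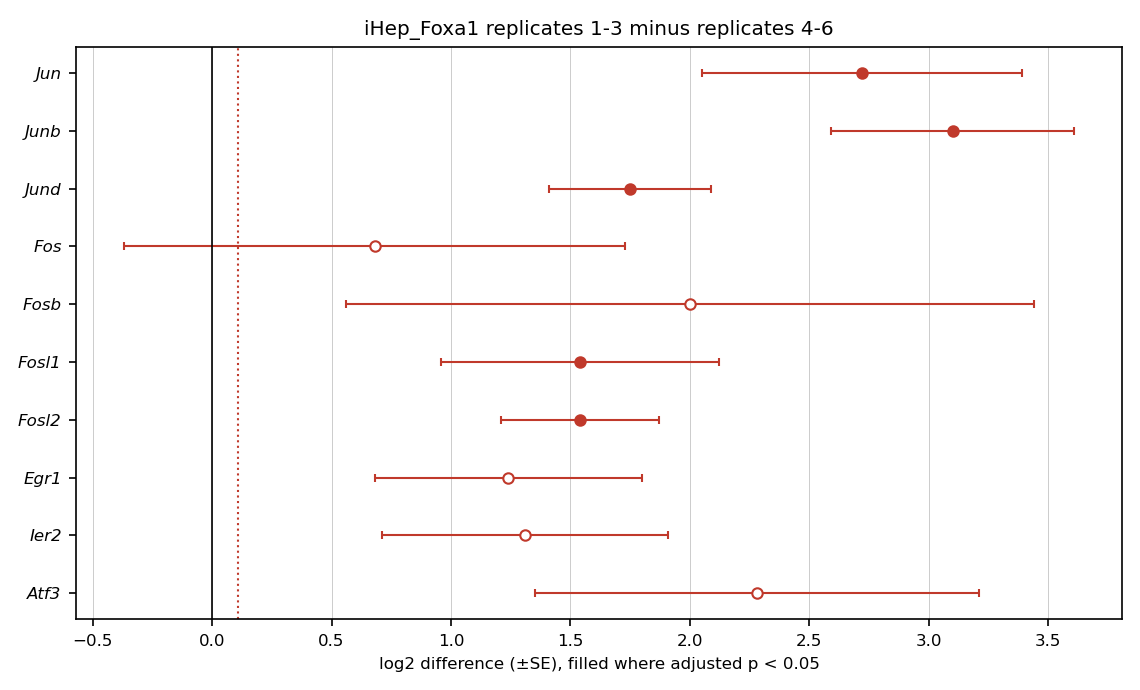
Points are log2 differences of iHep Foxa1 replicates 1 to 3 minus replicates 4 to 6 with bars of 1 SE; filled points have an adjusted p under 0.05, and the dotted line is the median of all genes tested (0.11). The 10 members lie between 0.68 (Fos) and 3.10 (Junb), and all 3 Jun genes are called.

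Other measures moved between these libraries too. Of 30 other immediate early genes 10 were higher in replicates 1 to 3 and 1 was lower, against 21.4% of all genes higher. Among them Ier5 was at a mean of 490 against 110 CPM (log2 difference 2.16), Klf6 at 808 against 166 CPM (2.29), and Tnfaip3, an inhibitor of NF-kappa-B signalling, at 118 against 8.65 CPM (3.76). Of 6 fibroblast markers 3 were higher in replicates 1 to 3 (Col1a1 at a mean of 154 against 29.3 CPM), and the list summed to 62.6 to 386 CPM there against 30.8 to 82.1 CPM. The hepatocyte marker Apoa1 was lower, at 3989 against 19970 CPM, and the 6 hepatocyte markers summed to 5143 to 7140 against 15970 to 30820 CPM. Of the 9 macrophage genes tested none was called and their sums overlapped (24.8 to 76.4 against 48.7 to 147 CPM), with Ptprc, C1qa, Adgre1 and Tyrobp at 0 in all 6 libraries. The part of library kind or of cell state in the members' difference was not tested.

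Between iHep groups of the same kind no member was called, which does not show equal levels. For low-Rn7sk iHep Foxa1 against iHep Foxa2, 0 of 10 were called (0.273% of all genes; 1 member had an unadjusted p under 0.05, and DESeq2 called 0). So few genes were called that 0 of 10 does not set the members apart from other genes. The lowest adjusted p was that of Fosl1, at 41.0, 7.61 and 28.4 CPM against 69.2, 73.7, 60.6 and 21.9 CPM (-1.13 ± 0.54, adjusted p = 0.349). For high-Rn7sk iHep Foxa1 against iHep Foxa3, 0 of 10 were called, and 13.2% of all genes were (0 members had an unadjusted p under 0.05, and DESeq2 called 0). The SE was between 0.29 (Jund and Fosl2) and 1.24 (Fosb) on the log2 scale. Over all genes, 875 were higher and 1297 lower in this comparison; with DESeq2's size factors these were 1105 and 1042.

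The 2 MEF libraries disagreed on this gene set. Fos was at 145 CPM in replicate 1 and 3.90 CPM in replicate 2, Fosb at 72.1 and 1.24, Egr1 at 805 and 82.2, Ier2 at 222 and 52.1 and Junb at 1229 and 380 CPM. In all, 7 of 10 members were over 2-fold higher in replicate 1 and 0 in replicate 2 (median log2 ratio 1.80), against 417 and 653 of all 16499 genes. Of the 30 other immediate early genes 15 were over 2-fold higher in replicate 1 and 2 in replicate 2. Jund (369 and 480 CPM), Fosl2 (243 and 188) and Atf3 (19.8 and 15.3) differed less. The macrophage genes went the other way, with sums of 29.5 CPM in replicate 1 and 334 CPM in replicate 2, and the heat shock genes summed to 4039 and 3544 CPM.

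Against MEF, the 48 h cells were low. The 3 comparisons share the MEF libraries. Junb and Ier2 fell with all 3 factors and Egr1 with Foxa1 and Foxa2, so that 3, 3 and 2 members were called lower (background 3.12%, 3.28% and 2.98% of genes lower). Junb fell by 4.75 ± 1.25 on the log2 scale with Foxa1 (adjusted p = 0.0322), Ier2 fell by 3.07 ± 0.84 (adjusted p = 0.0381) and Egr1 fell by 2.68 ± 0.77 (adjusted p = 0.0459). Fos did not pass with any factor (log2 differences of -3.81 to -3.42, adjusted p 0.0986 to 0.130); MEF replicate 2, at 3.90 CPM, was below all 6 libraries at 48 h. The calls were not stable. Without either 48 h library or without MEF replicate 1, 0 members were called with each factor, and without MEF replicate 2, 1. With the term for the kind of library 0 were called (Junb -1.90 ± 0.70 with Foxa1, adjusted p = 0.129). The macrophage genes moved in the same direction, with 4 of 9 lower at 48 h with each factor.

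Hepatocytes had high Jun genes and little of the later Fos genes. Jun was at 1025 and 309 CPM in Hep, Jund at 1520 and 734, Junb at 1753 and 856, Ier2 at 810 and 300 and Egr1 at 808 and 400 CPM, with replicate 1 higher for each. Against MEF only Ier2 was higher (2.02 ± 0.80, adjusted p = 0.0369; background 24.3% of genes higher), and the call was lost without MEF replicate 2 (adjusted p = 0.227) or Hep replicate 1 (0.327). Fosl1 and Fosl2 were lower (background 32.6% lower). Fosl1 had 0 reads and 1 read in the Hep libraries and was at 51.3 and 13.2 CPM in MEF. Fosl2 was at 8.45 and 18.4 CPM in Hep against 243 and 188 CPM (-4.00 ± 0.63, adjusted p = 1.32e-05). Without MEF replicate 1, 5 members were called. Fos was at 120 and 25.8 CPM in Hep and Fosb at 12.1 and 0 CPM. All CPM of Hep depend on the scaling: with DESeq2's size factors the median log2 difference of all genes moved from -0.29 to -0.13 against MEF, and from between 0.39 and 0.42 to between 0.16 and 0.21 for iHep against Hep, so differences that involve Hep are to be read against these medians.

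Compared with hepatocytes, iHep cells had more Fosl1 and Fosl2 with every factor and, by CPM, less Jund with Foxa1 and Foxa3. By mean FPKM, Jund was at 133 with Foxa1 and 74.5 with Foxa3 against 208 in Hep. In the low-Rn7sk libraries of iHep Foxa1 its mean FPKM was 204.7, so the lower Jund there rests on CPM. With Foxa1, Fosl1, Fosl2 and Atf3 were higher (background 35.3% higher) and Jund lower (24.8%); within low-Rn7sk libraries Fosb was added (37.5% higher, 26.7% lower). In that comparison Fosl2 was at 133, 273 and 143 CPM against 8.45 and 18.4 CPM (3.77 ± 0.44, adjusted p = 3.18e-07), and without Hep replicate 2 the difference was 4.43. The calls of Jund (-0.96 ± 0.36, adjusted p = 0.0249), Fosb and Atf3 each failed without at least 1 library: Jund without iHep Foxa1 replicate 1 (adjusted p = 0.0721), replicate 3 (0.0886) or Hep replicate 1 (0.511), Fosb without iHep Foxa1 replicate 1 (0.0606) or Hep replicate 2 (0.199), and Atf3 without Hep replicate 2 (0.109). Without iHep Foxa1 replicate 1 or Hep replicate 2, 3 of the 5 were left. With Foxa2, Fosb, Fosl1, Fosl2 and Atf3 were higher (35.2%), of which only Fosl1 and Fosl2 stayed called without Hep replicate 2. With Foxa3, Fosl1 and Fosl2 were higher (35.3%) and Jun, Jund and Ier2 lower (26.7%), and without Hep replicate 1 the calls of Jun and Ier2 were lost and 3 members were left. Of the 6 iHep Foxa3 libraries 5 are high-Rn7sk, while both Hep libraries are low-Rn7sk. With the term for the kind of library Jun (-1.31 ± 0.73, adjusted p = 0.123) and Ier2 (adjusted p = 0.227) were not called, Jund was still lower (-1.17 ± 0.38, adjusted p = 0.0112), and Atf3 was called higher (3.41 ± 1.25, adjusted p = 0.0219). Fos was above both Hep libraries in all 6 iHep Foxa1 and all 4 iHep Foxa2 libraries but did not pass (2.18 ± 1.16, adjusted p = 0.110, and 2.67 ± 1.23, adjusted p = 0.0645).

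Compared with the starting fibroblasts, Atf3 was the member called higher in iHep with Foxa1 (2.99 ± 1.19, adjusted p = 0.04999; background 20.0%) and Foxa2 (4.32 ± 1.32, adjusted p = 0.0158; 15.3%). It was at 157, 363 and 175 CPM in the low-Rn7sk libraries of Foxa1 and at 141, 788, 353 and 122 CPM with Foxa2, against 19.8 and 15.3 CPM in MEF. Within low-Rn7sk libraries the Foxa1 difference was 3.72 ± 1.18 (adjusted p = 0.0171; background 19.5%). Both MEF libraries were needed for it: without replicate 1 Atf3 was not called (adjusted p = 0.0931) but Junb, Fos, Egr1 and Ier2 were, and without replicate 2 no member was. With all Foxa1 libraries, leaving out iHep replicate 1, 3 or 6 or MEF replicate 2 gave 0 called members and leaving out MEF replicate 1 gave 2. Without iHep replicate 2 Atf3 was not called either, and 1 other member was called lower. With Foxa2, 3 were called without MEF replicate 1 and 0 without MEF replicate 2. With Foxa3, Fosl2 was lower than in MEF (-1.76 ± 0.42, adjusted p = 0.00154; 23.7%), and it stayed called without each library in turn. Without iHep Foxa3 replicate 1, 3 members were called lower, and without MEF replicate 1, 2 were called higher and 1 lower. With the term for the kind of library that Fosl2 difference was -0.85 ± 0.49 (adjusted p = 0.178), and Atf3 was called higher (3.45 ± 1.24, adjusted p = 0.0322).

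Between Foxa3del2 and 48 h Foxa3 cells the test over all groups called no member: 0 of 10, against 2.98% of genes in either direction. 1 member, Atf3, had an unadjusted p under 0.05. Atf3 was at 58.5 and 58.0 CPM against 5.37 and 5.39 CPM (3.44 ± 1.32, adjusted p = 0.173), Junb at 87.6 and 93.5 against 30.0 and 31.1 CPM (1.57 ± 1.10) and Fosl2 at 269 and 298 against 150 and 156 CPM (0.89 ± 0.55). Fos was at 7.03 and 6.43 CPM, the level of the 48 h cells. The 4 libraries are tight pairs while the fit takes its error from all groups: fitted alone, 8 members were called higher and 1 lower (edgeR), and DESeq2 over all groups called 1. The share of all genes called in the fit of the 2 groups alone is not given here. Its count of members is therefore not to be set against 2.98%, which belongs to the fit over all groups. Without a share from the same fit, that count cannot be read as a result about the members. The comparison sets low-Rn7sk against high-Rn7sk libraries, and with the term for the kind of library Jund was called lower (-2.13 ± 0.48, adjusted p = 0.00304). Jund itself was at 89.0 and 103 CPM against 106 and 110 CPM. The term takes its shift from iHep Foxa1 and iHep Foxa3, the only groups with both kinds of library. Foxa3del2 is low in Rn7sk but has Rps29 (372 and 373 CPM) in the range of high-Rn7sk libraries, so that shift may not apply to it. Of the 30 other immediate early genes 5 rose, among them Csrnp1 (37.5 against 5.29 CPM), Dusp6 (66.5 against 14.1 CPM) and Errfi1 (340 against 33.9 CPM), while Apoa1 was at 484 against 2.45 CPM.

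Other immediate early genes followed the members from 48 h to iHep. Of 30 such genes, 20 rose and 1 fell with Foxa1, 21 rose and 1 fell with Foxa2, and 16 rose and 5 fell with Foxa3. Their median log2 differences were 1.97, 2.89 and 1.91, against 0.08, 0.02 and 0.05 over all genes. Of all genes 21.2%, 20.4% and 19.6% were called higher, and 21.0% lower with Foxa3. The share lower with Foxa1 and Foxa2 is not given here. Within high-Rn7sk libraries 15 rose and 4 fell with Foxa1, and 17 rose and 5 fell with Foxa3. There 25.3% and 24.4% of all genes were called higher and 26.6% and 24.9% lower. Dusp6, an ERK phosphatase that ERK signalling induces, was at a mean of 178 CPM in iHep Foxa1 against 13.7 CPM at 48 h (log2 difference 3.70 ± 0.40) and at 334 against 14.1 CPM with Foxa3 (4.56 ± 0.42). Myc, a growth regulator, was at 166 against 13.04 CPM with Foxa1 (3.67 ± 0.49), and Klf4 at 342 against 47.6 CPM with Foxa2 (2.85 ± 0.33). Errfi1, a feedback inhibitor of the EGF receptor, was at 444 against 32.7 CPM with Foxa1 (3.76 ± 0.69). Maff was at 110 against 12.6 CPM with Foxa2 (3.13 ± 0.46) and at 71.1 against 10.7 CPM with Foxa3 (2.73 ± 0.44).

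Genes around AP-1 did not move as a block. Of 16 kinase and transcription factor genes of the inducing pathway, 3 rose and 2 fell with Foxa1, 4 rose and 2 fell with Foxa2, and 3 rose and 1 fell with Foxa3. Over all genes 21.2%, 20.4% and 19.6% were called higher with Foxa1, Foxa2 and Foxa3, and 21.0% lower with Foxa3. The rises in this list are near those shares, which apply to the lists below as well. The share called lower with Foxa1 and Foxa2 is not given here. Falls counted with these factors, in this list and those below, are therefore not to be read as a result about a list. The ERK kinase gene Map2k1 rose with each factor (175 to 184 CPM in iHep against 52.7 to 53.3 CPM at 48 h), as did the p38 gene Mapk14, while Nab2, a corepressor of Egr1, fell with Foxa1 (85.8 against 155 CPM) and Foxa3 (74.5 against 161 CPM). Of the 8 tested dimer partners outside the Jun and Fos families, Mafk rose with each factor (Foxa2: 156 against 19.5 CPM). The AP-1 repressor Jdp2 fell with Foxa1 (19.7 against 69.5 CPM) and Foxa3 (14.2 against 68.6 CPM). Of 13 genes known as AP-1 targets, among them secreted proteases and their inhibitors, 2 rose and 5 fell with Foxa1, 1 rose and 4 fell with Foxa2, and 3 rose and 4 fell with Foxa3. Plau, the urokinase gene, fell with each factor (Foxa3: 1.59 against 38.6 CPM), as did Timp1 (13.3 against 119 CPM with Foxa3). The urokinase receptor gene Plaur rose with Foxa1 (104 against 23.3 CPM) and Foxa2 (77.5 against 22.5 CPM), and the collagenase gene Mmp13 rose with Foxa3 (592 against 2.95 CPM). Of 10 heat shock genes 6, 6 and 4 rose and 0, 0 and 1 fell with the 3 factors, with Hspb1 at 134 to 156 CPM in iHep against 32.9 to 35.4 CPM at 48 h; they summed to 3823 to 5433 CPM in iHep and 2796 to 2923 CPM at 48 h. The part of stress or handling in the members' levels was not tested.

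The genes most like 3 leading members over all 28 libraries were found by Pearson's r of log2(CPM + 0.5) among genes with a mean of at least 5 CPM. The libraries share stage and kind, so r is a description only. For Fos they included Btg2 (r = 0.929), Egr1 (0.913), Dusp1 (0.907) and Fbxo34 (0.905). Btg2, an antiproliferative gene, and Dusp1, a MAP kinase phosphatase, are immediate early genes, and within the 14 high-Rn7sk libraries their r with Fos was 0.981 and 0.994. For Egr1 they were Cdk2ap2 (0.936), Ier2 (0.929), Dusp1 (0.923), Fos (0.913) and Junb (0.906). For Junb they were Akap8l (0.964), Srsf5 (0.962), Snrnp48 (0.959), Trappc6a (0.959) and Pick1 (0.958), of which none is on the immediate early lists; Srsf5 and Snrnp48 encode splicing factors. Within high-Rn7sk libraries Fosl2 had r of -0.773 with Junb, -0.730 with Fos and -0.831 with Egr1, but 0.571 with Jun. Jun was unlike them there (r of -0.215 with Junb and -0.325 with Egr1), while within low-Rn7sk libraries its r was 0.815 with Junb and 0.720 with Egr1.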

How the data were processed

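Per the labels' protocols, RNeasy columns and a stranded mRNA library kit were used; BWA 0.7.12 and mm9 are named in the submitters' processing notes. Which program quantified the transcripts is not given in the sources used here. Per the file headers, each of 30710 transcripts has 3 deposited values: its fraction of reads, its FPKM and its expected count. Transcripts were named by RefSeq (30190) or GENCODE (181); 339 stayed unnamed and held 0.609% to 3.21% of reads. Each member has 1 transcript. The counts were summed per gene, rounded and tested with edgeR 4.0.16 in R 4.3.3 (filterByExpr, TMM, robust quasi-likelihood fit over 28 libraries, 19 residual degrees of freedom; 17 where iHep Foxa1 and iHep Foxa3 were split by kind of library). P-values are 2-sided and adjusted by Benjamini-Hochberg over all 16499 genes; a call is an adjusted p under 0.05. The SE of a log2 difference is its size divided by the root of F. DESeq2 1.42.0 was an alternative. The edgeR fit was also run on simulated counts with changes in iHep Foxa1 only and no difference between kinds of library. That setting is simpler than these data, and its outcome is not given here. FPKM values were used only for the shares of the Jun and Fos families and to set iHep groups beside Hep. The latter was done for Jun, Jund and Ier2 with Foxa2, and for Jund with Foxa1 and Foxa3. Fractions were not used.

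The members, the lists, the split by Rn7sk (10 CPM) and the comparisons within a kind of library were chosen with earlier results of these data known. Besides the members, the called genes with the smallest adjusted p in each list are named, up to 4 per comparison. Some genes that this rule names are not reported here.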

Additional observations from a re-analysis of the deposited data

Results flagged for a closer look

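Outlying libraries were sought in the 3 iHep groups, the only groups of 4 to 10 libraries, with Dixon's test at the 95% level. Of 30 tests 5 were positive. A chance rate of about 1 in 20 holds for independent tests. These tests share libraries and use members that move together, so their count is not to be read against that rate. In iHep Foxa3, replicate 1 was far above the others for Junb (1348 CPM, next 586), Jund (610 CPM, next 191) and Fosl1 (103 CPM, next 29.8). It is the only low-Rn7sk library of its group. Replicate 3 of that group was far above the others for Fos (727 CPM, next 211). In iHep Foxa2, replicate 4 was far below the others for Jund (450 CPM, next 920). No interaction between Foxa factors or kinds of library passed the test.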

How the results depend on the processing

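No member's call reversed. Of 708 values of called members under an alternative, 582 kept their call and 126 lost it, of which 83 with 1 library left out. The counts of called members moved as follows, given without the share of all genes called under each alternative. For 48 h against MEF with Foxa1, Foxa2 and Foxa3 (3, 3 and 2 called), DESeq2's Wald test gave 5, 5 and 5, the 2 groups alone 7, 6 and 7, and the library kind term 0, 0 and 0; without the filter on low counts Foxa2 gave 0 and Foxa3 1. For iHep against 48 h with Foxa3 (8), the 2 groups alone gave 5. For iHep against MEF, Foxa1 (1) gave 0 with DESeq2's size factors, 0 without the filter and 0 with the groups alone; Foxa2 (1) gave 2 with the Wald test and 3 with the library kind term. For Foxa3del2 against 48 h Foxa3 (0), the Wald test gave 1, the groups alone 9 and the library kind term 1.

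Leaving out each library in turn gave 2 to 5 for Hep against MEF, 0 to 1 for each 48 h group against MEF, 3 to 8, 5 to 8 and 2 to 8 for iHep against 48 h, 0 to 2, 0 to 3 and 1 to 3 for iHep against MEF, 4 to 5, 2 to 4 and 3 to 6 for iHep against Hep, and 4 to 5 for iHep Foxa1 replicates 1 to 3 against 4 to 6. No member was called for Foxa3del2 or between iHep groups of 1 kind with any library left out. Within a kind of library, an alternative chosen after seeing the data like the library kind term, the ranges were 3 to 7 and 4 to 8 for iHep against 48 h with Foxa1 and Foxa3, and 0 to 4 and 3 to 5 for iHep Foxa1 against MEF and Hep. Where 1 library of a group was left, it was taken to vary like the other groups. The cause of these moves was not tested.

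Replicate numbers did not pair the libraries (r of deviations between -0.0641 and 0.202). With a replicate block, 48 h against MEF gave 5, 5 and 5, iHep against MEF 2, 5 and 2, and Foxa3del2 1. With 2 libraries in most groups, single calls depend on each of them.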
